A study of Mus musculus with 10 samples.

Results

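Transcripts of 26 genes of cholesterol synthesis, 20 enzymes of the pathway, 5 regulators and 1 sterol carrier, were followed in sorted cells of the adult mouse hippocampus. The genes were taken by symbol from a list of pathway genes, and all 26 were found among the 19965 named genes of the array table. Where a gene had several probe sets, the one with the highest mean over the 10 samples stood for it. All mice were heterozygous for a Sox1-GFP reporter, in which the promoter activity of Sox1, a gene of neural stem and progenitor cells, is read as green fluorescence. Hippocampi were dissociated with papain and cells were sorted into a GFP-high (positive) and a GFP-negative fraction, of which the labels call the first neural stem or progenitor cells of the subgranular zone. The groups were GFP-positive cells of old mice aged 1 year and 9 months (4 samples), GFP-positive cells of young mice (3 samples, replicate 1 at 7 months, replicate 2 at 5 and replicate 3 at 4) and GFP-negative cells of young mice (3 samples, replicates 1 and 2 at 7 months and replicate 3 at 4). The series text gives 5 months as the lowest young age, and the sample titles were followed here. GFP-negative cells of old mice were not analysed here. The titles speak of biological replicates but do not say whether fractions with the same number came from the same animal.

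Cholesterol is built from acetyl-CoA. Thiolase and HMG-CoA synthase make HMG-CoA, which is reduced to mevalonate, and kinases, a decarboxylase, an isomerase and prenyl transferases turn mevalonate into farnesyl diphosphate. Squalene synthase joins farnesyl units, squalene epoxidase and lanosterol synthase close the sterol ring system, and a chain of demethylases, reductases and isomerases turns lanosterol into cholesterol. The pathway is controlled by the SREBP transcription factors, which the protein Scap carries out of the endoplasmic reticulum when sterols are low and which Insig proteins hold back when sterols are high. In the adult brain cholesterol is made locally because lipoproteins do not cross the blood-brain barrier, and astrocytes and myelinating oligodendrocytes are known as its main producers.

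Since SREBPs act at promoters together with the factors NF-Y and Sp1, the promoter windows of the members were read from a RefSeq table of the mouse build GRCm38.p6, which gives 250 bases before and 50 bases after each annotated transcript start. Of the 26 genes 22 had a window, 30 windows in all, and Sqle, Fdft1, Fdps and Stard4 had none. The first 3 windows below belong to genes that were higher in GFP-positive cells, and the last pair to Tm7sf2 and Lbr, whose proteins reduce the same sterol and whose transcripts differed in opposite directions. They lie at chr13:119690101-119690400 (plus strand), chr8:64733529-64733828 (minus strand), chr13:8885356-8885655 (plus strand), chr19:6067801-6068100 (minus strand) and chr1:181842352-181842651 (minus strand). Each is written in the direction of its gene, and capitals mark the NF-Y box CCAAT on either strand (ATTGG on the other) and, in Hmgcs1, also the sterol regulatory element searched as TCACNCCAC.
Hmgcs1: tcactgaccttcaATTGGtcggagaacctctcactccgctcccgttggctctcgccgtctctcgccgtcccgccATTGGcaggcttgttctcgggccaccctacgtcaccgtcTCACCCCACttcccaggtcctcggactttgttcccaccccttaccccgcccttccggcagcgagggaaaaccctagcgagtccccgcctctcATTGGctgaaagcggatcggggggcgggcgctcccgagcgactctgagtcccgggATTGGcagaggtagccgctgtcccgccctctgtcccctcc
Msmo1: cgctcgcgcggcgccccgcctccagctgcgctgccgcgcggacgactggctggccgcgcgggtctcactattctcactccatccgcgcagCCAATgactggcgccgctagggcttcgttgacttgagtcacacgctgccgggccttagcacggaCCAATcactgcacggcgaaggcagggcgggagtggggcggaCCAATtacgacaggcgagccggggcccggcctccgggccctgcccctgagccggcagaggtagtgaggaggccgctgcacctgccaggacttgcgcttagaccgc
Idi1: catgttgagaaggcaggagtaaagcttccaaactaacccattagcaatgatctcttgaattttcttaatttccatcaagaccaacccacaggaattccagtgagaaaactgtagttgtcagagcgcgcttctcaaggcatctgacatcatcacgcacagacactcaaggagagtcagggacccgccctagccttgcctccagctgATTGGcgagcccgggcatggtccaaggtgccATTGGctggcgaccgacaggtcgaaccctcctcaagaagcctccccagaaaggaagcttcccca
Tm7sf2: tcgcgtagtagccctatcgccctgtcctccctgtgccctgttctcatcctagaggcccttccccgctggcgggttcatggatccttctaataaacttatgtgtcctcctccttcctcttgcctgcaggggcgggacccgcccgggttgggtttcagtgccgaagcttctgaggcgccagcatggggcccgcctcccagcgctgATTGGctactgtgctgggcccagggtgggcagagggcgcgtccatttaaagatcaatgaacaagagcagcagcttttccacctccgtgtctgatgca
Lbr: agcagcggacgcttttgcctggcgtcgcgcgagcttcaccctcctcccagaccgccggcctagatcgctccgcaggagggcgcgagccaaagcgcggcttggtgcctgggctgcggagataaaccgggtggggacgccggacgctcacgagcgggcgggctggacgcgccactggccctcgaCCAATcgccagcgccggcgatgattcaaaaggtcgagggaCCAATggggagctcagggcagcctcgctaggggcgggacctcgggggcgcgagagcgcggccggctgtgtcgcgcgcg

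The box CCAAT was present in at least 1 window of 20 of the 22 genes, or 90.9%, against 41.1% of all 27025 genes with a window and 42.1% of the 15536 genes that were also measured on the arrays. The Sp1 box GGGCGG was likewise present in 20 of 22 genes, against 38.2% of all genes and 53.4% of the measured ones. Both stood in the windows of 18 genes (81.8%), against 15.8% of all and 22.6% of the measured genes. Within the members' windows 44 CCAAT matches were found, with a median start at position -57.5 from the transcript start. The sterol element in the form searched was found in Hmgcs1 alone, at position -137 and overlapping no CCAAT match, and in 1.44% of all genes. Both strands were searched for every motif. Lbr and Ebp, whose transcripts were lower in GFP-positive cells, held 2 CCAAT matches each, so that presence of the box did not separate the members by direction. These are descriptions of letters in a window, not of bound sites, and genes with several windows had more chances of a match.

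**Figure D1:**
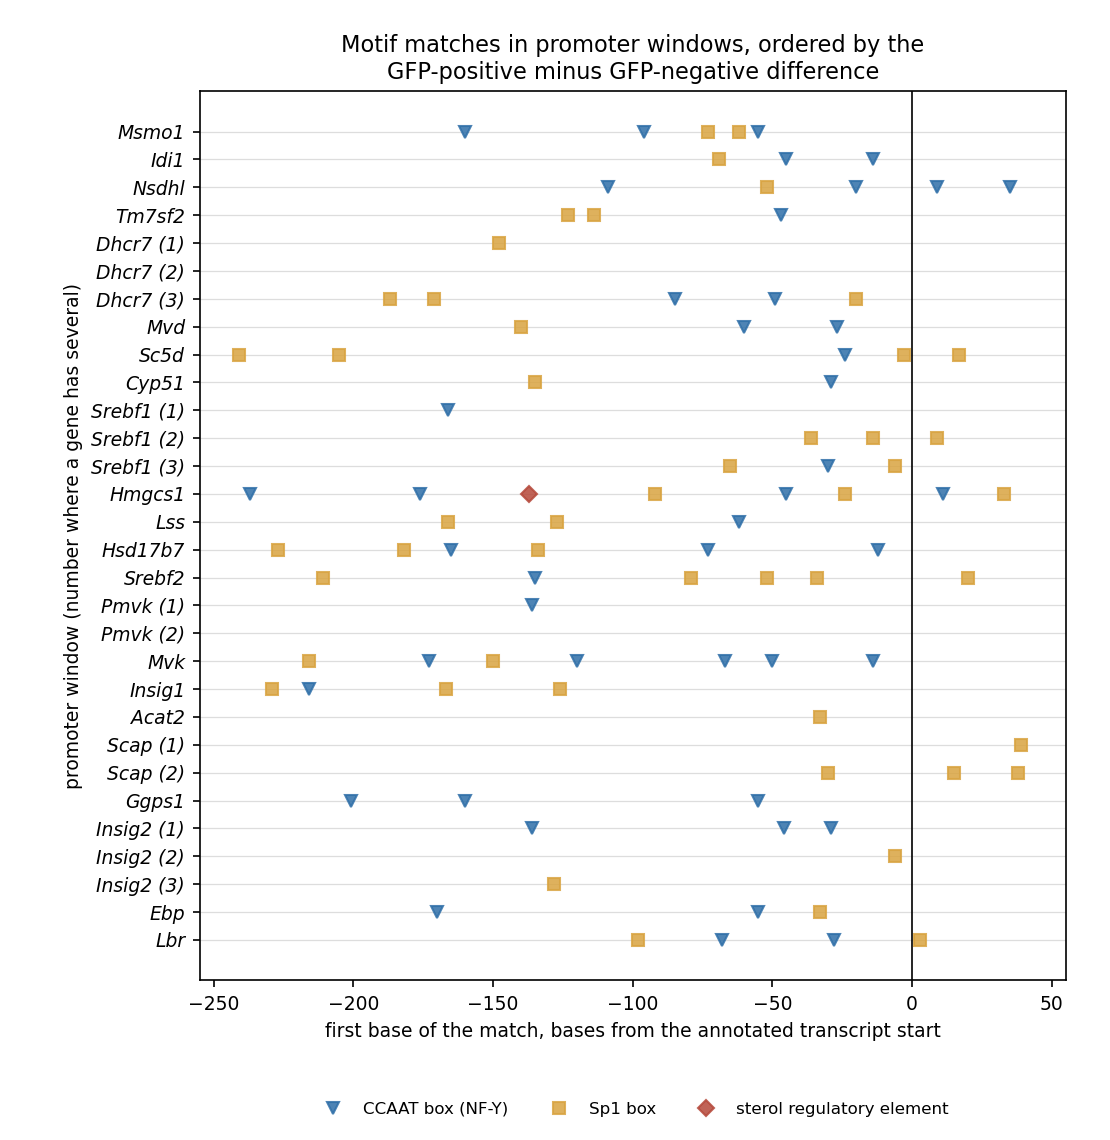
Motif matches in the 30 promoter windows of 22 cholesterol synthesis genes, placed by the distance of the match's first base from the annotated transcript start (x axis, bases). Rows (y axis) are ordered by the log2 difference between young GFP-positive and GFP-negative cells, from Msmo1 at the top to Lbr at the bottom. CCAAT boxes (triangles) and Sp1 boxes (squares) occur from the top to the bottom of the order. The sterol element (diamond), searched only as TCACNCCAC, is seen in Hmgcs1 alone.

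The expression values are log2 values after Robust Multichip Average (RMA), so a difference of 1 is a 2-fold difference, and array medians lay between 6.54 and 6.66. Values of different genes are not comparable with each other, because probes differ. Sox1 itself had log2 RMA values of 7.56, 7.55 and 7.32 in the young GFP-positive samples and 7.07, 7.24 and 7.28 in the GFP-negative ones (limma, adjusted p = 0.123). The fractions differed widely in cell type markers. All 11 astrocyte markers were higher in the young GFP-positive samples (mean log2 level per sample 10.45 to 10.85 against 7.36 to 8.17). All 8 microglia markers (5.98 to 6.72 against 9.42 to 10.09), all 8 markers of mature oligodendrocytes (7.89 to 8.71 against 10.67 to 11.12), all 5 of oligodendrocyte precursors and all 6 of endothelium were lower. Of 8 neuron markers 1 was higher and 2 were lower. Of the 2 erythroid markers measured, 1 was lower. Markers of the choroid plexus, a tissue next to the hippocampus, averaged 8.66 and 8.75 in both young replicate 1 samples and between 5.70 and 6.42 in the other 8. In sorted bulk RNA, fewer cells of a type cannot be told apart from less RNA per cell, and the part of these marker differences in the results below was not tested.

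In the young hippocampus the cholesterol pathway was mostly higher in the GFP-positive cells. Of the 26 genes, 14 were higher, 2 were lower (Lbr and Ebp) and 10 did not pass the test, which was limma over all genes with an adjusted p under 0.05. Over all genes 7.68% were higher and 9.3% lower by the same rule. The median log2 difference of the 26 genes was 0.73, from -0.97 for Lbr to 1.56 for Msmo1, beside a median of 0.098 over all genes. For 17 genes the 3 GFP-positive values were all higher than the 3 GFP-negative ones, which held for 23.9% of all genes. Differences are given as young GFP-positive minus young GFP-negative, with the moderated standard error (SE). When both young replicate 1 samples, which were high in choroid plexus markers, were left out, 9 genes were higher and none lower, with a median of 0.68, and in that fit 3.89% of all genes were higher and 5.33% lower.

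**Figure D2:**
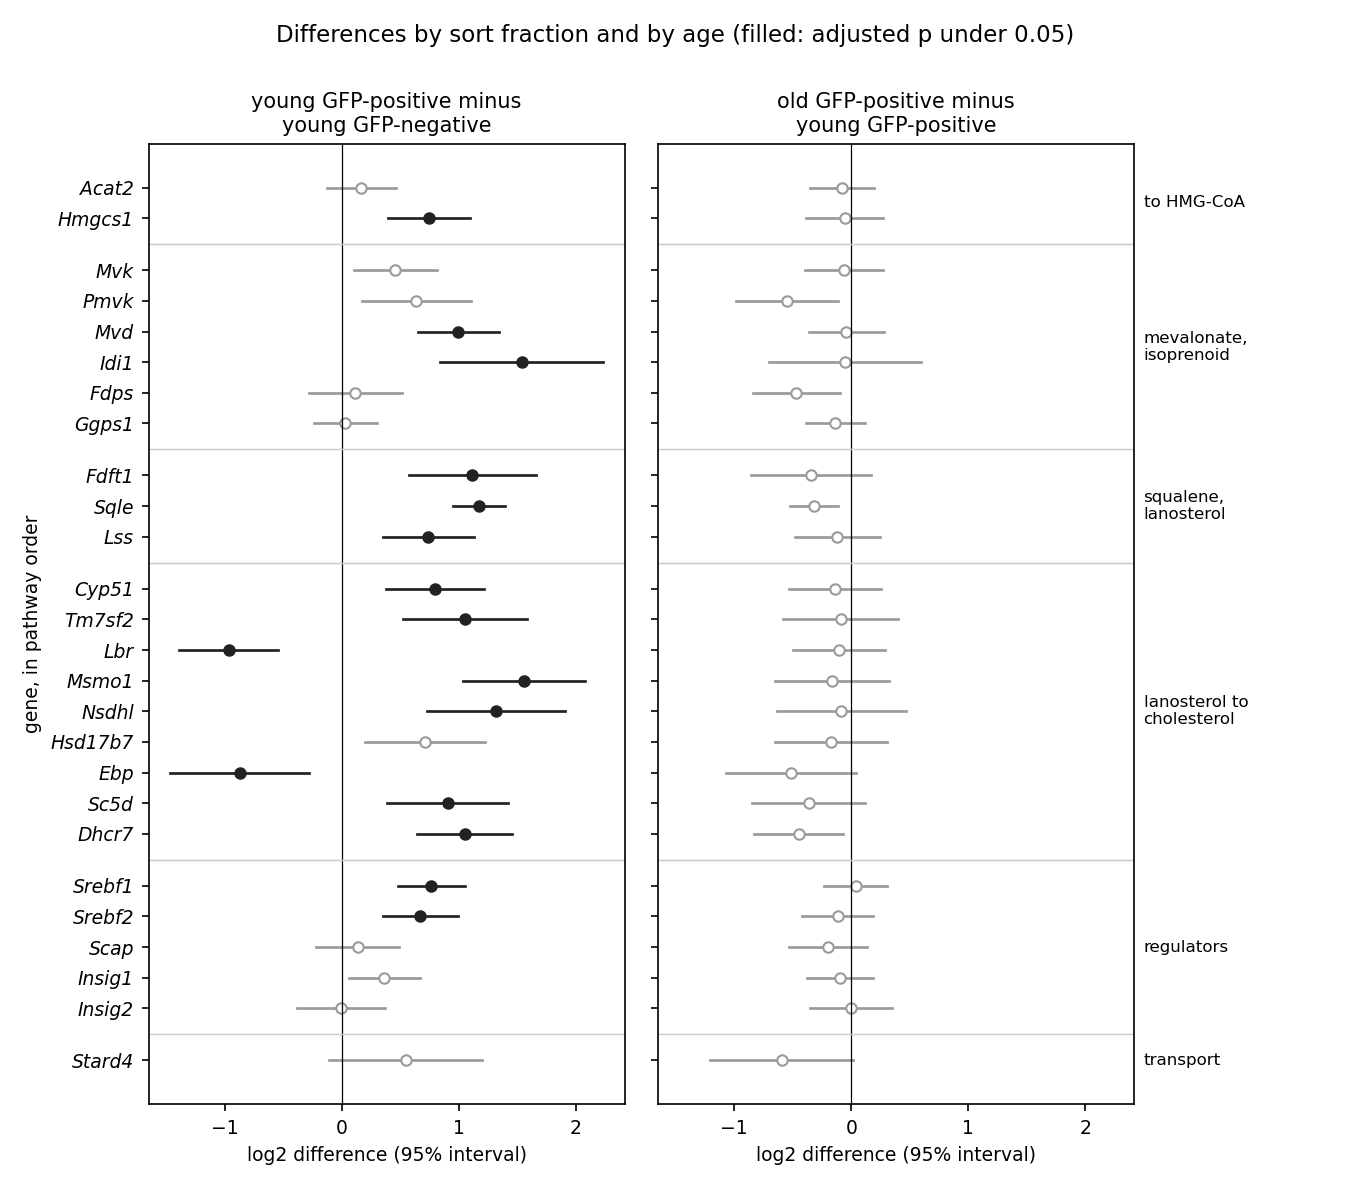
Log2 differences of the 26 genes in pathway order (y axis), young GFP-positive minus GFP-negative on the left and old minus young GFP-positive on the right (x axes, log2), with 95% intervals from the limma fit. On the left 14 genes lie to the right of 0 and Lbr and Ebp to the left with filled symbols (adjusted p under 0.05), and on the right no symbol is filled.

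At the start of the pathway HMG-CoA synthase was higher and thiolase did not pass the test. Hmgcs1, which makes HMG-CoA, had values of 10.65, 10.83 and 10.33 in the young GFP-positive samples, 9.81, 9.96 and 9.80 in the GFP-negative ones and 10.78, 10.61, 10.26 and 10.53 in the old ones. All 7 GFP-positive values lay above all GFP-negative values. Its difference was 0.75 ± 0.16 (SE), a 1.68-fold difference (limma, adjusted p = 0.00726), which did not pass without the replicate 1 samples (0.70, adjusted p = 0.0842). Acat2, the cytosolic thiolase (not the sterol esterifying enzyme that once shared the name), ranged from 7.86 to 8.30 over the 10 samples, and its difference of 0.17 had a 95% interval from -0.13 to 0.46.

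In the mevalonate section the decarboxylase and the isomerase were higher, and the kinases and prenyl transferases did not pass the test. Idi1, the isomerase that sets the ratio of both isoprenoid units, had values of 9.03, 9.95 and 8.86 in the young GFP-positive samples, 7.92, 7.90 and 7.42 in the GFP-negative ones and 9.61, 9.37, 8.54 and 9.40 in the old ones. The GFP-positive samples were spread over more than 1 unit, and each was still above the GFP-negative ones. The difference of Idi1 was 1.54 ± 0.32 (SE), 2.90-fold (limma, adjusted p = 0.0058). Mvd, the mevalonate diphosphate decarboxylase, had 7.17, 7.49 and 7.55 in young GFP-positive, 6.18, 6.50 and 6.55 in GFP-negative and 7.39, 7.56, 7.11 and 7.39 in old samples. Its groups did not overlap by fraction, and the difference was 0.99 ± 0.16 (SE, limma adjusted p = 0.00104). The kinases that act before it were less certain: Mvk had a difference of 0.46 (adjusted p = 0.0795) with groups that did not overlap, and Pmvk one of 0.64 (adjusted p = 0.0639) with groups that did. Fdps, which makes farnesyl diphosphate, had a difference of 0.12 (95% interval from -0.28 to 0.52). Ggps1, which leads away from sterols to the geranylgeranyl lipid of prenylated proteins, had one of 0.028 (95% interval from -0.24 to 0.30). Ggps1 values lay between 7.97 and 8.47 in all 10 samples.

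The enzymes that commit the pathway to sterols were all 3 higher. Sqle, squalene epoxidase, which adds oxygen to squalene, had narrow groups. Sqle had values of 9.75, 9.72 and 9.62 in the young GFP-positive samples, 8.50, 8.57 and 8.51 in the GFP-negative ones and 9.37, 9.46, 9.27 and 9.41 in the old ones. The 3 groups occupied separate ranges, with the old samples between the others. Its sort difference of 1.17 ± 0.10 (SE), 2.25-fold, had the smallest adjusted p of the 26 genes (limma, 1.33e-05) and passed under all 21 alternative settings. Fdft1, squalene synthase, had 10.64, 10.33 and 9.93 in young GFP-positive, 9.49, 9.35 and 8.71 in GFP-negative and 9.71, 10.20, 9.67 and 10.23 in old samples. Replicate 3 was the lowest in both young fractions, the groups did not overlap, and the difference was 1.12 ± 0.25 (SE, limma adjusted p = 0.00907). Lss, lanosterol synthase, had 7.41, 7.01 and 7.11 in young GFP-positive, 6.60, 6.37 and 6.35 in GFP-negative and 7.01, 7.18, 6.68 and 7.37 in old samples. Each GFP-positive value again lay above the GFP-negative ones, with a difference of 0.74 ± 0.18 (SE, limma adjusted p = 0.0141). Lss did not pass when the fit omitted replicate 1 of the young GFP-positive group (adjusted p = 0.0630), replicate 2 of the GFP-negative group (0.0558), both 4-month-old samples (0.0655) or both replicate 1 samples (0.0783).

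**Figure D3:**
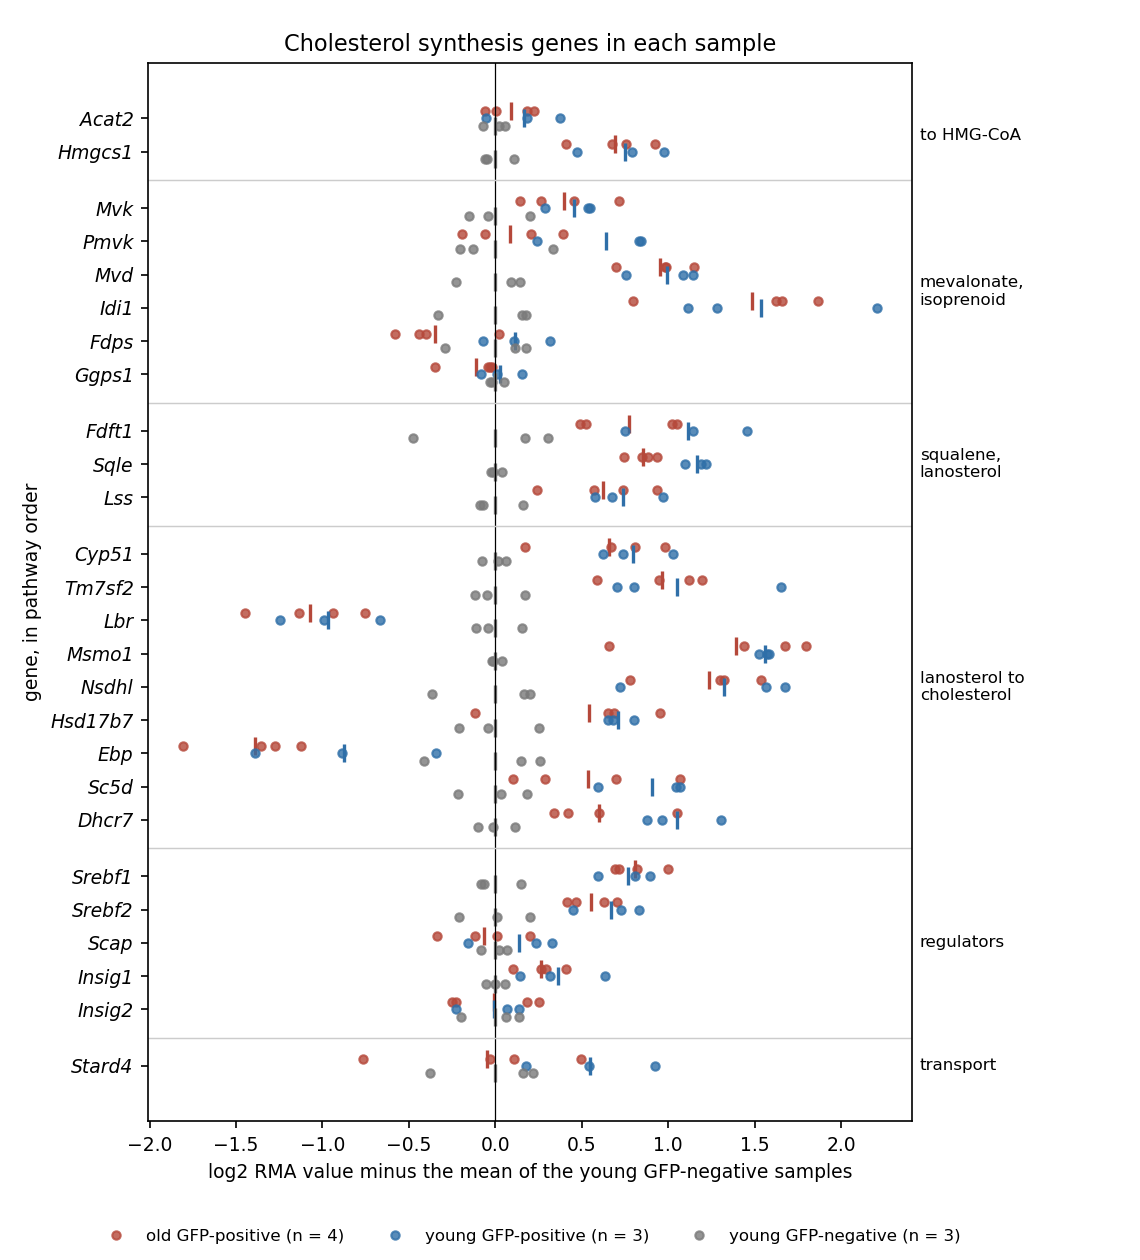
Values of the 26 genes in all 10 samples, as log2 RMA value minus the mean of the young GFP-negative samples (x axis), with genes in pathway order (y axis). Each point is a sample and each short vertical line a group mean (4 old GFP-positive, 3 young GFP-positive and 3 young GFP-negative samples). Most enzymes lie to the right of 0 in both GFP-positive groups, Lbr and Ebp to the left, Acat2, Ggps1, Scap and Insig2 around 0, and Fdps around 0 in young and mostly to the left in old samples.

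Between lanosterol and cholesterol 6 of 9 genes were higher and 2 lower. Msmo1, the oxidase that starts the ring demethylation after that by Cyp51, had values of 10.72, 10.71 and 10.67 in the young GFP-positive samples, 9.18, 9.12 and 9.13 in the GFP-negative ones and 10.82, 10.58, 9.80 and 10.94 in the old ones. The young groups were narrow and far apart, while 1 old sample, replicate 3, lay below the other GFP-positive ones. Its difference of 1.56 ± 0.24 (SE), 2.95-fold, was the largest of the 26 genes (limma, adjusted p = 0.000782). Nsdhl, the dehydrogenase that acts with Msmo1, had 9.75, 9.64 and 8.80 in young GFP-positive, 8.24, 8.28 and 7.71 in GFP-negative and 9.61, 9.38, 8.86 and 9.40 in old samples. As for Fdft1, replicate 3 was the lowest in both young fractions, and the difference was 1.32 ± 0.27 (SE, limma adjusted p = 0.00534). Hsd17b7, the reductase that completes this demethylation, had a difference of 0.71 (limma, adjusted p = 0.0591) with groups that did not overlap, and passed under 7 of 21 alternative settings. Cyp51, the demethylase that acts first on lanosterol, had 9.04, 9.33 and 8.92 in young GFP-positive, 8.22, 8.32 and 8.36 in GFP-negative and 8.97, 9.11, 8.47 and 9.28 in old samples. All GFP-positive values were above the GFP-negative ones, and the difference was 0.80 ± 0.19 (SE, limma adjusted p = 0.0135). It did not pass without young GFP-positive replicate 2 (adjusted p = 0.0576), young GFP-negative replicate 1 (0.0518) or both replicate 1 samples (0.101).

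The reductases Tm7sf2 and Lbr, which can carry out the same step after Cyp51, went in opposite directions. Lbr, the lamin B receptor, is also a protein of the inner nuclear membrane that binds chromatin. Tm7sf2 had values of 7.74, 6.88 and 6.78 in the young GFP-positive samples, 5.96, 6.03 and 6.25 in the GFP-negative ones and 7.03, 7.28, 7.21 and 6.67 in the old ones. Lbr had 6.93, 7.18 and 7.51 in young GFP-positive, 8.13, 8.32 and 8.06 in GFP-negative and 7.23, 7.04, 6.72 and 7.42 in old samples. For neither gene did the young fractions overlap, and young GFP-positive replicate 1 was the highest of its group in Tm7sf2 and the lowest in Lbr. Tm7sf2 was 2.07-fold higher in GFP-positive cells (1.05 ± 0.24, SE, limma adjusted p = 0.0104) and Lbr 1.95-fold lower (-0.97 ± 0.19, SE, limma adjusted p = 0.00455). Without both replicate 1 samples neither passed (0.69 with adjusted p = 0.0773 and -0.85 with adjusted p = 0.0538).

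Of the last 3 enzymes, 1 was lower and 2 were higher. Ebp, a sterol isomerase, was dim, with values of 5.61, 6.12 and 6.66 in young GFP-positive, 7.26, 7.15 and 6.59 in GFP-negative and 5.20, 5.73, 5.65 and 5.88 in old samples. The young groups overlapped at replicate 3, in which both fractions had nearly the same value. Its difference was -0.87 ± 0.27 (SE, limma adjusted p = 0.0473), and the call was lost under 11 of 21 alternative settings, among them the omission of a single sample: replicate 1 (adjusted p = 0.165) or 2 (0.105) of the positive fraction, 1 (0.166) or 2 (0.144) of the negative one, or old replicate 2 (0.0633), 3 (0.0647) or 4 (0.0575). Without both replicate 1 samples it was -0.48 (adjusted p = 0.387). Sc5d, the desaturase that follows Ebp, had 9.66, 9.63 and 9.18 in young GFP-positive, 8.62, 8.37 and 8.77 in GFP-negative and 9.66, 8.87, 8.69 and 9.29 in old samples. The young groups did not overlap, and the old values reached down into the GFP-negative range. The difference of Sc5d was 0.90 ± 0.24 (SE, limma adjusted p = 0.0216), a call lost on omission of replicate 1 (adjusted p = 0.0790) or 2 (0.0731) of the positive fraction or of 1 (0.0583) or 2 (0.0890) of the negative one, and without both replicate 1 samples (0.156). Dhcr7, the reductase of the final step to cholesterol, had 8.44, 8.53 and 8.87 in young GFP-positive, 7.55, 7.46 and 7.68 in GFP-negative and 8.61, 7.90, 8.16 and 7.98 in old samples. All young GFP-positive values were well above the GFP-negative ones, and the difference was 1.05 ± 0.19 (SE, limma adjusted p = 0.00217).

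Of the regulators, both SREBP genes were higher, and their escort and anchors did not pass. Srebf1, whose SREBP proteins drive mainly fatty acid genes, had values of 8.67, 8.59 and 8.37 in the young GFP-positive samples, 7.71, 7.69 and 7.93 in the GFP-negative ones and 8.78, 8.47, 8.60 and 8.49 in the old ones. Srebf2, whose protein drives mainly cholesterol genes, had 8.90, 8.80 and 8.52 in young GFP-positive, 8.27, 8.08 and 7.86 in GFP-negative and 8.70, 8.54, 8.48 and 8.78 in old samples. For both genes all 7 GFP-positive values lay above the GFP-negative ones. The differences were 0.77 ± 0.13 (SE, limma adjusted p = 0.00172) for Srebf1 and 0.67 ± 0.15 (SE, limma adjusted p = 0.00823) for Srebf2, and both passed under all 21 alternative settings. The probe set of Srebf1 does not separate its transcript forms.

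Insig1 and Insig2 encode related anchors, of which Insig1 is itself an SREBP target. Insig1 had 9.43, 9.92 and 9.60 in young GFP-positive, 9.23, 9.28 and 9.34 in GFP-negative and 9.69, 9.55, 9.39 and 9.58 in old samples. Its values did not overlap by fraction, yet the difference of 0.36 ± 0.14 (SE, limma adjusted p = 0.101) passed only with array weights (adjusted p = 0.0277) and after quantile normalization (0.0242). Insig2 had 7.77, 8.06 and 8.13 in young GFP-positive, 8.06, 8.13 and 7.80 in GFP-negative and 8.25, 7.77, 7.75 and 8.18 in old samples. These groups lay over each other, with a difference of -0.0078 and a 95% interval from -0.38 to 0.37. Scap had 8.07, 8.16 and 7.67 in young GFP-positive, 7.90, 7.85 and 7.75 in GFP-negative and 7.49, 7.84, 7.71 and 8.03 in old samples. Its groups overlapped as well (difference 0.13, 95% interval from -0.22 to 0.49). Stard4, a soluble carrier that moves cholesterol between membranes, ranged from 8.23 to 8.98 in young GFP-positive and from 7.68 to 8.28 in GFP-negative cells, a difference of 0.55 (limma, adjusted p = 0.238).

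Other genes of sterol and fatty acid metabolism made up a second list. Of its 32 measured genes, 14 were higher in young GFP-positive cells, 1 was lower and 17 did not pass. Over all genes 7.68% were higher and 9.3% lower. The median difference of the list was 0.36, beside 0.098 over all genes. The largest differences in the list were those of Gpam (2.57), the first enzyme of glycerolipid synthesis, Fads2 (2.47), a fatty acid desaturase, and Soat1 (1.94), which esterifies cholesterol for storage, whose adjusted p in limma was at most 1.41e-05. The gene that was lower was Mylip (-1.30 ± 0.17, SE, limma adjusted p = 0.000324), a ubiquitin ligase induced by sterol-sensing nuclear receptors. Scd2 and Scd1, fatty acid desaturases that are SREBP targets as well, had differences of 0.024 and -0.024 with adjusted p of 0.941 and 0.973.

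Next it was asked whether the pathway differed with age within the GFP-positive cells, and differences are given as old minus young. By limma 0 of the 26 genes passed the test, with the smallest adjusted p at 0.313 for Sqle, and 3 of 19965 genes did (0.015%). At an unadjusted p under 0.05 there were 4 of 26 genes, against 10.2% of all genes. These were Sqle (-0.32 ± 0.094, SE), Pmvk (-0.55 ± 0.20), Fdps (-0.47 ± 0.17) and Dhcr7 (-0.45 ± 0.17), all with negative fitted differences, and both comparisons share the young GFP-positive samples. Of the 4, only Sqle had groups that did not overlap, with old values up to 9.46 and young values from 9.62, and a lower group without overlap was seen for 4.06% of all genes. Fdps ranged from 8.33 to 8.93 in old, from 8.84 to 9.23 in young GFP-positive and from 8.62 to 9.09 in GFP-negative samples.

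The fitted age difference was below 0 for 25 of the 26 genes, Srebf1 being above 0 (0.040), against 39.6% of all genes. The median was -0.13, beside 0.053 over all genes. This count moved with 1 sample. Old replicate 3 was the lowest of the 4 old samples for 16 of the 26 genes and the highest for 0, while over all genes it was the lowest for 19.0% and the highest for 38.8%. Its values were 8.54 for Idi1, 9.80 for Msmo1, 7.47 for Hsd17b7 and 7.30 for Stard4. The other 3 old samples had values from 9.37 to 9.61 for Idi1, from 10.58 to 10.94 for Msmo1, from 8.24 to 8.55 for Hsd17b7 and from 8.03 to 8.56 for Stard4. Old replicate 3 also differed from the other 9 samples in Xist (11.90 against 4.95 to 5.69), the RNA of the inactive X chromosome in females, and in the Y-linked gene Ddx3y (5.32 against 9.15 to 9.83), a pattern of a female among males. Without it 15 of 26 genes were below 0, with a median of -0.061 beside 0.031 over all genes and 43.3% of all genes below 0. The differences of Hmgcs1, Idi1, Mvd, Lss, Cyp51, Lbr, Msmo1, Nsdhl, Hsd17b7 and Insig2 were then above 0 (0.18 for Idi1 and 0.078 for Msmo1). Those of Sqle (-0.28), Pmvk (-0.59), Fdps (-0.45) and Dhcr7 (-0.45) were about as large as before, and none of the 26 passed (smallest adjusted p = 0.464). The part of this sample's difference in sex-linked genes in its low values was not tested, and sex cannot be told apart from that mouse. Replicate 3 was also the lowest for 15 of the 26 genes in young GFP-positive and 12 in GFP-negative cells, and the highest for 5 and 9. Over all genes it was the lowest for 32.5% and 30.5% and the highest for 40.2% and 43.9%. Deviations over all genes correlated between old and young GFP-positive samples with r of -0.018, -0.067 and 0.216 for numbers 1, 2 and 3. What number 3 samples may share was not tested.

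**Figure D4:**
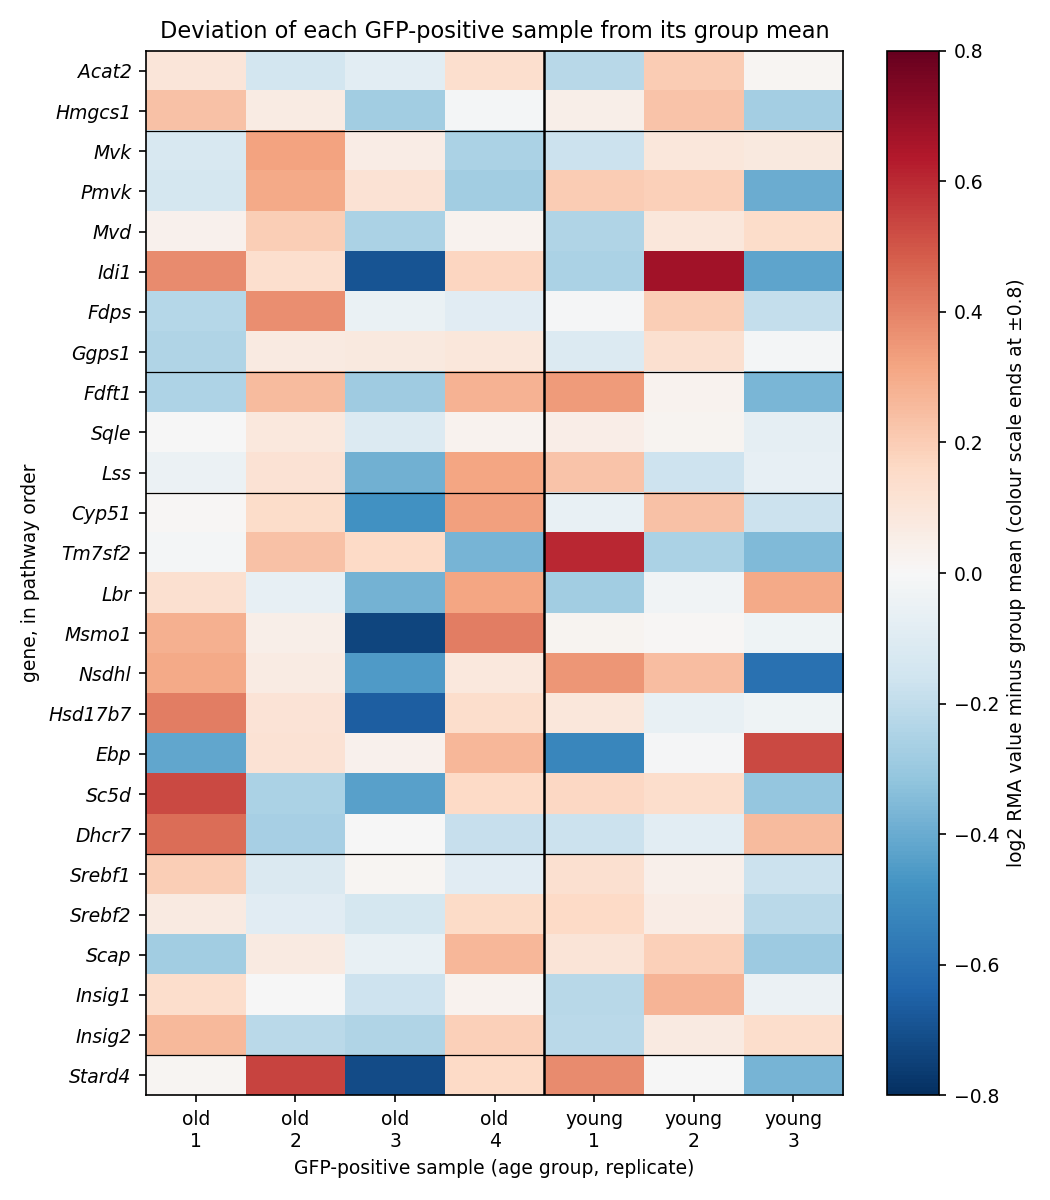
Deviation of each GFP-positive sample from its group mean (colour, log2 RMA value minus group mean, scale ending at 0.8 in either direction) for the 26 genes in pathway order (rows) and 7 samples (columns, 4 old and 3 young). The column of old replicate 3 is blue for most genes, deepest at Idi1, Msmo1, Hsd17b7 and Stard4, and young replicate 3 is the lowest young GFP-positive sample for 15 of 26 genes, against 32.5% of all genes.

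The intervals show what size of age difference these samples could have held. For Hmgcs1 the 95% interval ran from -0.39 to 0.27, for Srebf2 from -0.42 to 0.18, for Srebf1 from -0.23 to 0.31 and for Insig1 from -0.38 to 0.19. For the variable Idi1 it ran from -0.70 to 0.60. Stard4 (-0.59, interval from -1.21 to 0.018) and Ebp (-0.52, from -1.07 to 0.038) had the lowest limits, and both values moved with single samples. Stard4 was at -0.35 without old replicate 3. Ebp was at -0.25 without young GFP-positive replicate 3 and at -0.78 without young GFP-positive replicate 1. Of the second list 0 of 32 genes passed the age test by limma. An unadjusted p under 0.05 was seen for 3 of them, against 10.2% of all genes. Markers of astrocytes (10.65 to 10.83 in old and 10.45 to 10.85 in young GFP-positive samples) and of microglia (6.16 to 6.34 and 5.98 to 6.72) lay in overlapping ranges. Those of mature oligodendrocytes averaged 7.79 to 7.87 in old and 7.89 to 8.71 in young samples. By limma 0 of these 8 passed the test, and 3 had an unadjusted p under 0.05, against the same 10.2% of all genes. The part of that difference in the values of the pathway was not tested.

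Set against the young GFP-negative cells, the old GFP-positive samples gave the following values. All 4 old values lay above all 3 GFP-negative values for 14 of the 26 genes, against 29.8% of all genes. They lay below them for Lbr and Ebp, and the share of all genes in that direction was not counted. The GFP-negative samples are the same as in the comparison of the young fractions, and age and sort fraction differ together in this contrast, so it is given as a description with no test.

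Of the 26 genes 4 had 2 probe sets each. Those of Mvd held identical values, and those of Pmvk (0.64 and 0.60 by fraction), Scap (0.13 and 0.15) and Insig2 (-0.0078 and 0.0092) differed from each other by less than the SE of either, with the sign of Insig2 turned.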

How the data were processed

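RNA of 10 sorted samples was hybridised to Affymetrix mouse gene arrays. The deposited table holds log2 values that the authors made by Robust Multichip Average (RMA), with probes regrouped to mm9 RefSeq transcripts, per the series text and the submitters' processing notes. RMA corrects background, equalises array distributions and summarises probes, which removes differences in total signal and shrinks those of dim genes. No detection call is given, and precision is limited by how few arrays there are. Per the series text, 1 array of a young mouse was left out as an outlier by the submitters.

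Of 31672 probe sets 24590 matched a symbol by RefSeq accession in a gene table of GRCm38.p6, giving 19965 genes, and the brightest probe set stood for each gene. Genes were tested with limma 3.58.1 in R 4.3.3 (group means of 3 groups in 1 fit, two-sided, empirical Bayes, residual degrees of freedom 7 and prior 4.07, Benjamini-Hochberg adjusted over all genes). In simulated data of 19965 genes for the sort comparison, 194 of 200 genes shifted by 2 log2 units were recovered, with 9 false calls. The largest sort difference of the cholesterol synthesis genes was 1.56 (Msmo1). Recovery at the sizes reported for these genes was therefore not tested, and this simulation did not cover the age comparison. The submitters used Significance Analysis of Microarrays, which was not run here. P-values set a group difference against the spread between these samples, which limma moderates with that of other genes. Figures were drawn with matplotlib 3.10.9.

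The members, lists, motifs and rule for named genes were chosen with earlier results of these data known. Per-sample values are given for members past the test in either comparison, the regulators, and members opposite in sign to their step. From the second list the 3 largest differences past the test were named, some genes that the rule names are not reported here, and Mylip, Scd1 and Scd2 were named after their values were seen. Motif shares among measured genes were added after the data were seen. Fractions of the same number were not treated as paired, because the titles do not say that they share mice and number 2 differs in age. Over all genes, deviations from group means correlated between the young fractions with r of 0.124, 0.0211 and 0.191 for numbers 1, 2 and 3. Between unlike numbers r ran from -0.176 to 0.078. GFP-positive numbers 1 and 3 thus correlated best with their own number, and a shared mouse was not tested. Faxdc2 and Hba-a1 were not analysed here.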

Additional observations from a re-analysis of the deposited data

Results flagged for a closer look

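Among 30 genes checked in the 4 old samples, Ggps1 had 1 sample far from the others. Old replicate 1 had a log2 RMA value of 7.97, and the other 3 had 8.28, 8.29 and 8.30, so that the gap took up a share of 0.94 of the whole range and passed Dixon's critical value at the 95% level. Chance alone marks about 1 group in 20.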

How the results depend on the processing

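By fraction, the 16 members past the test became 9 without both young replicate 1 samples (all higher, with all genes falling from 3390 to 1841), and 16 to 18 under the settings that left no sample out. Leaving out single samples gave 13 to 17 members and 2393 to 3600 genes. Array weights gave 5736 genes (3035 higher and 2701 lower, against 1533 and 1857), and testing all probe sets gave 5242 probe sets. With the replicate block 17 members passed, Mvk (0.46, adjusted p = 0.0213) and Pmvk (0.64, 0.0436) being added and Ebp lost (adjusted p = 0.0806). The labels do not say that a number marks shared mice, and number 2 of the fractions differs in age. GFP-positive numbers 1 and 3 correlated best with their own number (r = 0.124 and 0.191), and number 2 with GFP-negative number 1 (r = 0.078). By age 0 members passed under every setting run. The 3 genes past the test by age became 0 with only both groups compared, with limma-trend, after quantile normalization and with the replicate block (3285 genes by fraction), 20 with array weights, 5 with the mean of all probe sets, 8 with all probe sets tested, 5 without both young replicate 1 samples and 1 without both 4-month-old samples. Leaving out single samples gave 0 to 9. The count of 25 members below 0 fell to 15 without old replicate 3 and lay between 18 and 26 when another single sample was left out. It was 24 with array weights, 21 after quantile normalization and 23 with the replicate block. The block ran over all 3 groups, so old mice were also matched by number to young mice, which are different animals. Old replicate 4 had no partner of its number. The block's age differences were therefore those of the fit without that sample (23 below 0, median -0.21 in both), not a separate check. The causes of these changes were not tested. No member past the test in one setting changed its sign in another.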

Other observations

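A neighbour of the thiolase gene gave a different picture from Acat2. Acat3, which the RefSeq table places on the same chromosome as Acat2 and which encodes a related acetyl-CoA acetyltransferase, had log2 RMA values of 8.27, 8.46 and 8.21 in young GFP-positive, 6.15, 6.62 and 6.65 in GFP-negative and 8.46, 8.04, 8.24 and 8.41 in old samples. It was 3.58-fold higher in young GFP-positive cells (1.84 ± 0.16, SE, limma adjusted p = 1.56e-05), while Acat2 had a difference of 0.17 ± 0.13 (SE). Acat3 was looked at after the values were seen, and probes of the related genes can share transcripts.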
